A study of Homo sapiens with 12 samples.

Results

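The genes described here are 6 transcription factors that drive epithelial-mesenchymal transition (EMT), SNAI1, SNAI2, TWIST1, TWIST2, ZEB1 and ZEB2, and 2 products of mesenchymal cells, vimentin (VIM) and fibronectin (FN1). They were chosen by name and make up 8 of the 29972 gene rows in each of the 2 deposited tables, 1 per cell line. For each gene the level in control cells and the response to loss of PHF19, an accessory subunit of Polycomb repressive complex PRC2, were compared between the lines. These genes, and the gene lists set beside them further on, were chosen with earlier results of these data known.

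The lines were MDA-MB-436 and BoM-1833, both from triple-negative breast cancer. BoM-1833 was selected for growth in bone. Whether a difference between the lines goes with that selection or with their origin was not tested. Cells of each line were reverse transfected with RNAiMAX and 5 nM siRNA in total and harvested after 72 h. Controls (siNT) received the ON-TARGETplus non-targeting pool, and treated cells (siPHF19) received 2 Silencer Select siRNAs against PHF19 in equal parts, so that the control and the treatment came from different suppliers. The 2 PHF19 siRNAs were used only as a mixture. Each of the 4 groups held 3 libraries from a stranded mRNA preparation, 12 in all. Whether the libraries of a group came from separate cultures is not stated, so the p-values measure the spread between these libraries, which may be technical.

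The MDA-MB-436 libraries held 15.2 to 24.0 M reads in genes and the BoM-1833 libraries 13.7 to 21.3 M. In BoM-1833 the treated libraries summed to 44.4 M reads and the controls to 56.8 M, and the part of depth in the results was not tested. PHF19 fell in both lines, with log2 fold changes of -3.36 and -3.19 in the authors' deposited table. Levels are given as reads per M reads (RPM) of the library total, after the totals were scaled together over the 12 libraries. ESR1 and PGR, the hormone receptors that this tumour type lacks, averaged 0 and 0 RPM in control MDA-MB-436 and 0.103 and 0.0373 in control BoM-1833. ERBB2 was read at 56.4 and 63.2 RPM. The fibroblast markers DCN and LUM and the T cell marker CD3E had no read in any control library, while the fibroblast and pericyte marker PDGFRB was at 0.513 and 11.5 RPM in MDA-MB-436 and BoM-1833 and the endothelial marker PECAM1 at 1.47 and 19.6. The endothelial cadherin CDH5 was at 0.0218 and 0.0547 RPM and the leukocyte marker PTPRC at 0.0332 and 1.01. The epithelial cadherin CDH1 was close to absent, at 0.0555 and 0.344 RPM. The keratins KRT8 and KRT18 were read in both lines, at 57.0 and 267 in MDA-MB-436 and at 534 and 477 in BoM-1833. KRT19 was read at 0.0194 and 350.3 RPM and KRT17 at 39.6 and 0.126, and KRT5 and KRT14 at 0.184 and 0.212 in MDA-MB-436, with BoM-1833 at 0.

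EMT is the programme by which epithelial cells give up their junctions and take on the shape, matrix and motility of mesenchymal cells. SNAI1 (Snail) and SNAI2 (Slug) are zinc-finger repressors that bind E-boxes in epithelial promoters, and ZEB1 and ZEB2 bind similar sites through zinc-finger clusters at either end of the protein. TWIST1 and TWIST2 are basic helix-loop-helix factors that bind as dimers. VIM forms the intermediate filaments of mesenchymal cells and FN1 is a secreted matrix glycoprotein read by integrins. Many triple-negative lines hold some of these genes without a stimulus.

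On GRCh38 (GENCODE 29), SNAI1 lies on chromosome 20 from 49982999 to 49988886 (plus strand) and SNAI2 on chromosome 8 from 48917604 to 48921740 (minus strand). TWIST1 lies on chromosome 7 from 19020991 to 19117672 (minus strand) and TWIST2 on chromosome 2 from 238848032 to 238910543 (plus strand). ZEB1 occupies 31318495 to 31529814 on chromosome 10 (plus strand), and ZEB2 144364364 to 144524583 on chromosome 2 (minus strand). VIM is at 17228259 to 17237593 on chromosome 10 (plus strand) and FN1 at 215360440 to 215436172 on chromosome 2 (minus strand). All 8 are protein-coding genes, and values are for the whole gene, not for an exon or isoform.

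After siPHF19, SNAI2 fell most, ZEB2 and SNAI1 fell less and TWIST2 fell least in MDA-MB-436, while in BoM-1833 ZEB1 and VIM fell. Genes count as called where the authors' DESeq2 Wald test gave an adjusted p under 0.05. By that rule 4 of the 8 members, all tested, were called in MDA-MB-436, each lower. The background there was 22.1% of all tested genes, with 11.5% lower and 10.5% higher. In BoM-1833 5 members were tested, since TWIST1 and TWIST2 had no read and SNAI1 had too few for an adjusted p, and 2 were called, each lower. The background in that line was 10.9%, with 5.72% lower and 5.21% higher. The median log2 fold change over the tested members was -0.23 for MDA-MB-436 and -0.29 for BoM-1833, against -0.00 over all tested genes in each line.

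The count of members called in both lines was 0 by DESeq2 and 0 by edgeR, and 1 at an unadjusted p under 0.05 (ZEB2). A call in both was made for 5.97% of the 12290 genes with a test in each line, with 3.12% lower in both and 2.55% higher in both, so that a count of 0 among the 5 members tested in both does not set them apart. None was called higher by DESeq2 in either line. At an unadjusted p under 0.05 the higher members numbered 1 in MDA-MB-436 (FN1) and 0 in BoM-1833, and edgeR called the same numbers higher. The 2 calls of BoM-1833 rest on few libraries: 0 remained without siPHF19 replicate 3, and 1 each without siNT replicate 2, siNT replicate 3 or siPHF19 replicate 2. In MDA-MB-436, 2 calls remained without siPHF19 replicate 1. In bulk RNA, fewer cells that express a gene and less RNA per cell cannot be told apart.

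**Figure D1:**
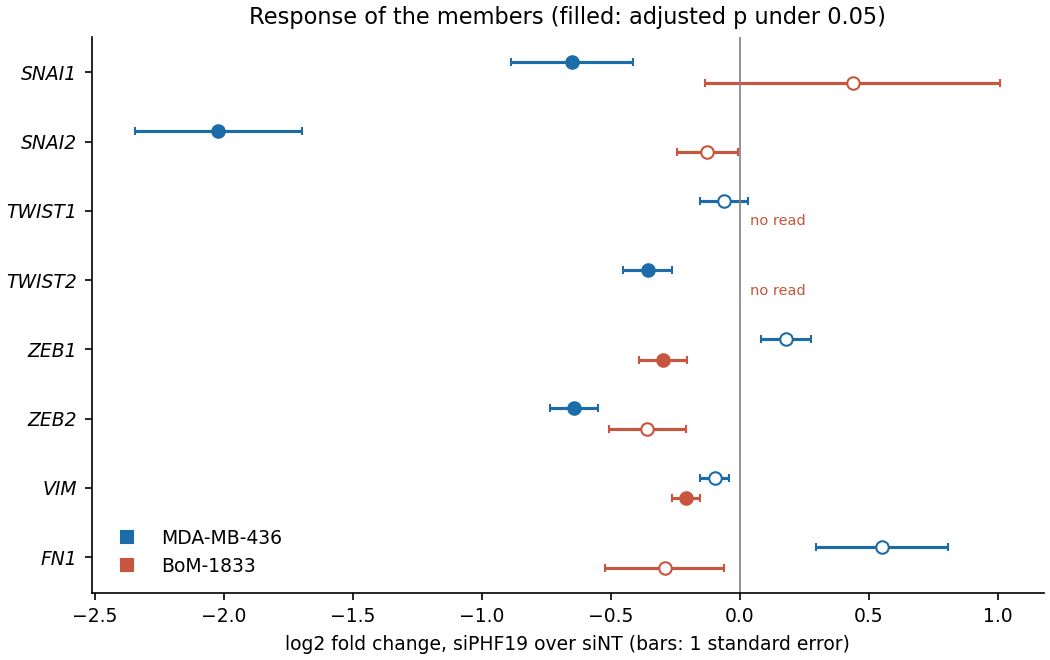
Log2 fold change of siPHF19 over siNT for the 8 genes in MDA-MB-436 (blue) and BoM-1833 (red), from the authors' deposited table, with bars of 1 standard error. Filled points have an adjusted p under 0.05, and SNAI2 in MDA-MB-436 lies farthest from 0, at -2.02.

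For each member the log2 difference between the controls of the lines was larger than its response in either line. Because the deposited tables were normalised separately in each line, whole reads were recovered from them and scaled together, and levels between lines are given as RPM on that scale. TWIST1, TWIST2, SNAI1 and ZEB2 were higher in MDA-MB-436, and SNAI2, ZEB1, VIM and FN1 were higher in BoM-1833. All 8 differed in edgeR's quasi-likelihood test (adjusted p of at most 1.98e-06). So did 80.9% of all tested genes, of which 39.7% were higher in BoM-1833 and 41.2% lower, as shares of those tested, so that a difference as such does not set the members apart. Each of the 8 differences kept its direction and its call in all 13 alternative settings. Within the SNAI and ZEB pairs the order of control levels per length was opposite in the lines, with SNAI2 above SNAI1 and ZEB1 above ZEB2 in BoM-1833 and the reverse in MDA-MB-436.

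Levels of different genes can be ordered only per length, here as reads per kilobase and per M reads (RPKM) over the longest coding transcript. In control MDA-MB-436 cells VIM led with 565 ± 18.6 RPKM (SD, n = 3). TWIST2 (24.4 ± 0.454) and TWIST1 (21.6 ± 0.828) followed, then ZEB2 (12.7 ± 1.33), FN1 (11.4 ± 3.35), ZEB1 (6.20 ± 0.477), SNAI1 (3.16 ± 0.555) and SNAI2 (1.74 ± 0.187, each SD, n = 3). The libraries of ZEB2 and FN1 overlapped, and no other neighbours in this order did. With the length of all merged exons in place of the longest transcript, TWIST1 (21.6) passed TWIST2 (18.3) and FN1 (11.2) passed ZEB2 (9.10). In control BoM-1833 cells the order was VIM (2388 ± 126 RPKM), FN1 (49.4 ± 11.7), ZEB1 (21.4 ± 2.69), SNAI2 (10.4 ± 0.426), ZEB2 (1.86 ± 0.233) and SNAI1 (0.411 ± 0.115, each SD, n = 3), followed by TWIST1 and TWIST2 at 0. No neighbours with reads overlapped there. Of the summed RPKM of the 6 factors, TWIST2, TWIST1 and ZEB2 held 35.0%, 30.9% and 18.2% in MDA-MB-436, whereas ZEB1 and SNAI2 held 62.9% and 30.5% in BoM-1833.

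**Figure D2:**
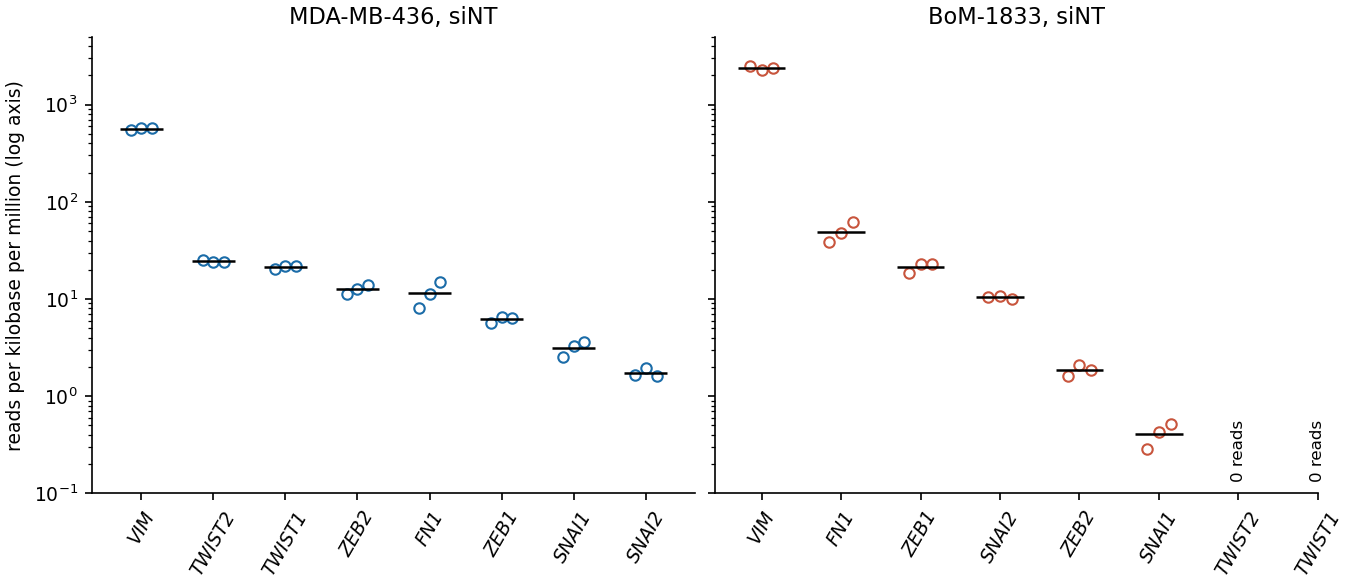
Control (siNT) levels of the 8 genes in RPKM over the longest coding transcript, on a log axis, ordered within each line. Points are the 3 libraries and lines their mean; VIM leads in both lines (565 and 2388), and TWIST1 and TWIST2 have 0 reads in BoM-1833.

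SNAI1 was a gene of low level in MDA-MB-436 and close to the limit of counting in BoM-1833. In MDA-MB-436 its normalized counts were 80.8, 103 and 115 in the siNT libraries and 69.8, 66.3 and 53.9 in the siPHF19 libraries, given here and later in the order of replicates 1 to 3. The highest treated library lay below the lowest control, so the groups did not overlap. The mean went from 99.6 ± 17.4 to 63.3 ± 8.36 (SD, n = 3). SNAI1 fell there by 0.65 on the log2 scale (standard error 0.24, adjusted p 0.0305) by the authors' deposited table. The call was kept in 1 of 6 fits without 1 library, the fit without siNT replicate 1. The adjusted p without siNT replicate 2 or 3 was 0.184 and 0.147, and without siPHF19 replicate 1, 2 or 3 it was 0.0856, 0.123 and 0.196. The log2 fold change stayed between -0.78 and -0.54.

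In BoM-1833 SNAI1 had 10, 13 and 15 reads in the control libraries and 22, 8 and 12 reads in the treated ones. As normalized counts these were 7.94, 11.99 and 14.3 in siNT and 21.9, 9.44 and 14.4 in siPHF19 libraries, and the ranges overlapped. SNAI1 has a log2 fold change of 0.44 (standard error 0.57, unadjusted p 0.446) in the authors' deposited table of that line and no adjusted p. At control level it was 7.72-fold higher in MDA-MB-436, at 5.32 ± 0.936 against 0.693 ± 0.195 RPM (SD, n = 3). A change of its response between the lines was not tested over all genes, and the unadjusted p of the difference was 0.0791 (z test, 2-sided).

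SNAI2 showed the greatest change of any member, and only MDA-MB-436 had it called. Its normalized counts there were 75.3, 88.4 and 73.4 in siNT and 17.4, 26.5 and 13.7 in siPHF19 libraries. Every treated library lay far below every control. The means were 79.0 ± 8.15 and 19.2 ± 6.57 (SD, n = 3). SNAI2 fell by 2.02 on the log2 scale (standard error 0.32, adjusted p 1.63e-08) by the authors' deposited table, which leaves 24.7% of the control level. These were 69, 114 and 60 reads in controls and 16, 32 and 13 in treated libraries, so the size of the change is less precise than its direction.

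In the line with more SNAI2 no change passed the test. In BoM-1833 the normalized counts were 421, 428 and 396 in siNT and 340 (replicate 1), 394 and 410 in siPHF19 libraries. The ranges overlapped. The log2 fold change in the authors' deposited table is -0.13 (standard error 0.12, adjusted p 0.623). The responses of SNAI2 differed between the lines by 1.89 on the log2 scale (standard error 0.34, adjusted p 6.03e-06, z test over 12290 genes), and this call was kept in each of the 12 fits without 1 library. Control SNAI2 was 5.91-fold higher in BoM-1833, at 25.2 ± 1.03 against 4.22 ± 0.454 RPM (SD, n = 3). Among treated libraries the gap between lines was wider, with a log2 ratio of 4.43 in place of 2.56.

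TWIST1 and TWIST2 were present in MDA-MB-436 and had no read in any of the 6 BoM-1833 libraries. Over the BoM-1833 controls, with 56.8 M reads, a count of 0 allows up to 0.0537 RPM (3 reads over the scaled total of the group). That limit, like all counting limits here, covers counting error only. TWIST1 stood at 35.9 ± 1.38 and TWIST2 at 34.3 ± 0.637 RPM (SD, n = 3) in control MDA-MB-436, which is at least 668-fold and at least 638-fold higher.

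The TWIST paralogs responded unequally in MDA-MB-436. TWIST1 had normalized counts of 645, 680 and 691 in siNT and 637, 622 and 677 in siPHF19 libraries, with overlapping ranges. TWIST1 was not called, its log2 fold change being -0.06 (standard error 0.09, adjusted p 0.706) by the authors' deposited table. TWIST2 had 658, 633 and 635 in siNT and 493, 500.3 and 510.1 in siPHF19 libraries, the tightest groups of any factor, and these did not overlap. Its mean went from 642 ± 14.0 to 501 ± 8.70 (SD, n = 3). TWIST2 fell by 0.36 on the log2 scale (standard error 0.09, adjusted p 0.00153) by the authors' deposited table, and the call was lost without siPHF19 replicate 1 (adjusted p 0.0503). Within libraries, TWIST2 reads per TWIST1 read were 1.02, 0.931 and 0.919 in siNT and 0.774, 0.804 and 0.754 in siPHF19 replicates 1 to 3. The exact 2-sided permutation test of this ratio gave p = 0.1, the smallest value that 3 against 3 libraries allow.

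The bases just upstream of TWIST2 are shown because the gene had no read in one line and was among the most abundant factors in the other. Promoter windows of 250 bases before to 50 after a start came from RefSeq (GRCh38.p14) and were matched by symbol for 5 members, TWIST2, ZEB1, ZEB2, VIM and FN1. On chr2:238847835-238848031 (plus strand, up to the annotated transcript), capitals mark the CCAAT box (CCAAT) and the GC box (GGGCGG), searched on both strands with overlapping matches each counted.
TWIST2 upstream: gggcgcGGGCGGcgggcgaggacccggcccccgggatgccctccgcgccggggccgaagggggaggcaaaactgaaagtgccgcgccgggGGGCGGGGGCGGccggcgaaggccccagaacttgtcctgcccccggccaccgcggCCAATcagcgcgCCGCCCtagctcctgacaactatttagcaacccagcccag
The whole TWIST2 window holds 4 GC boxes and 1 CCAAT box, which 45.0% and 34.6% of all 35116 windows hold at least once. It has no match to CAGGTG, the E-box that SNAI and ZEB factors bind, which 20.6% of windows hold. A match is a description of letters, not of a bound site.

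ZEB1 fell in BoM-1833 and was not called in MDA-MB-436. The BoM-1833 libraries had normalized counts of 1885, 2388 and 2360 in siNT and 1904, 1664 and 1824 in siPHF19 libraries. The groups overlapped, because siNT replicate 1 lay below siPHF19 replicate 1. Means were 2211 ± 283 and 1797 ± 122 (SD, n = 3). ZEB1 fell by 0.30 on the log2 scale (standard error 0.09, adjusted p 0.0145) by the authors' deposited table. That call was kept in 2 of 6 fits without 1 library. It was lost without siNT replicate 2 (adjusted p 0.179) or 3 (0.118) and without siPHF19 replicate 2 (0.202) or 3 (0.0749).

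In MDA-MB-436 the normalized counts of ZEB1 were 665, 757 and 758 in siNT and 857, 842 and 771 in siPHF19 libraries. All treated values were above all controls, the nearest by a small margin. ZEB1 was not called, its log2 fold change being 0.18 (standard error 0.10, adjusted p 0.185) by the authors' deposited table. The responses of ZEB1 differed between the lines by -0.48 (BoM-1833 minus MDA-MB-436, standard error 0.13, adjusted p 0.0120, z test). This was kept in 7 of 12 fits without 1 library and lost without MDA-MB-436 siPHF19 replicate 1 (adjusted p 0.104) or 2 (0.0936) and without BoM-1833 siNT replicate 2 (0.0791), siNT replicate 3 (0.0586) or siPHF19 replicate 2 (0.0859). At control level ZEB1 was 3.46-fold higher in BoM-1833, at 134 ± 16.9 against 38.8 ± 2.99 RPM (SD, n = 3).

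ZEB2 fell in MDA-MB-436, where it was the more abundant of the ZEB genes in controls. The normalized counts were 2043, 2265 and 2516 in siNT and 1536, 1437 and 1392 in siPHF19 libraries, with a wide gap between the groups. The mean went from 2275 ± 236 to 1455 ± 73.7 (SD, n = 3). ZEB2 fell by 0.64 on the log2 scale (standard error 0.09, adjusted p 1.86e-10) by the authors' deposited table, so that 64.0% remained, and each of the 6 fits without 1 library kept the call.

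In BoM-1833 ZEB2 had normalized counts of 256, 331 and 291 in siNT and 214, 213 and 258 in siPHF19 libraries. The highest treated library passed the lowest control by a small margin. ZEB2 was not called there, its log2 fold change being -0.36 (standard error 0.15, adjusted p 0.107) by the authors' deposited table. Without siNT replicate 1 it passed the threshold (-0.45, adjusted p 0.0350, DESeq2). The difference of the responses between lines was 0.29 (standard error 0.17, adjusted p 0.434, z test), so the lines were not shown to differ in the response of ZEB2. Its control level was 6.84-fold higher in MDA-MB-436, at 122 ± 12.7 against 17.8 ± 2.23 RPM (SD, n = 3).

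The ratio of ZEB1 to ZEB2 reads, taken within each library so that no scaling between libraries enters, lay on opposite sides of 1 in the lines. ZEB1 reads per ZEB2 read were 0.325, 0.334 and 0.301 in siNT and 0.558, 0.586 and 0.554 in siPHF19 libraries of MDA-MB-436. Every treated library was above every control there, with means of 0.320 ± 0.0170 and 0.566 ± 0.0173 (SD, n = 3, exact 2-sided permutation p = 0.1, the smallest possible). In BoM-1833 the ratio was 7.35, 7.21 and 8.11 in siNT and 8.92, 7.80 and 7.06 in siPHF19 libraries. These overlapped, with means of 7.56 ± 0.483 and 7.92 ± 0.935 (SD, n = 3, exact 2-sided permutation p = 0.7). A ratio of reads does not order the levels of genes of different length. Per length, ZEB1 was above ZEB2 in control and treated BoM-1833 cells, and ZEB2 was above ZEB1 in control MDA-MB-436 cells, over the longest transcript and over merged exons alike. In treated MDA-MB-436 cells the order depended on the length used. Over the longest transcript ZEB2 stood at 8.15 ± 0.398 and ZEB1 at 7.05 ± 0.385 RPKM, and over merged exons ZEB1 stood at 6.87 ± 0.375 and ZEB2 at 5.85 ± 0.286 (each SD, n = 3), with no overlap of libraries either way.

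**Figure D3:**
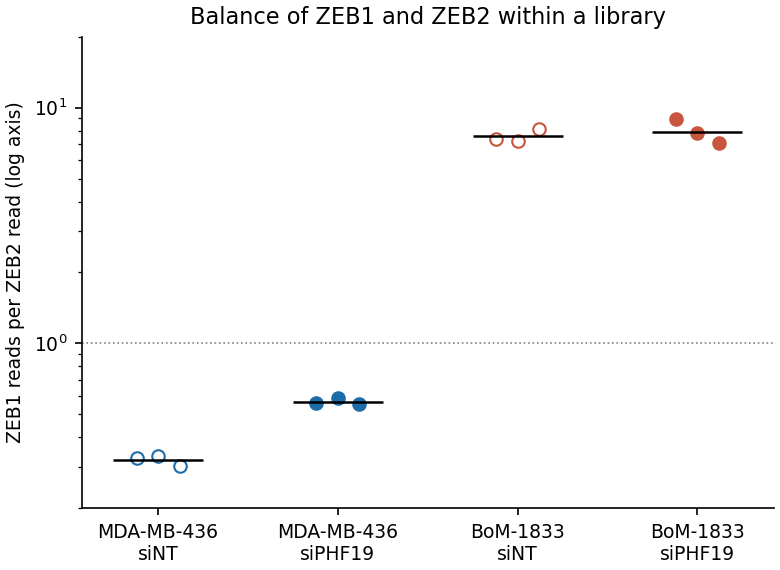
ZEB1 reads per ZEB2 read in each library, on a log axis, with lines at the mean of 3 libraries and a dotted line at equal reads. The means are 0.320 (siNT) and 0.566 (siPHF19) in MDA-MB-436 and 7.56 and 7.92 in BoM-1833.

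ZEB1 and ZEB2 are the best known targets of the miR-200 family, microRNAs of epithelial cells that pair with sites in the 3′ UTR. The mature microRNAs (RefSeq, GRCh38.p14) are shown with the seed, bases 2 to 8, in capitals. They are given because the ZEB transcripts held more matching sites than those of any other gene described here. The family has 2 seeds that differ by a base, and the first 2 lines share one seed and the last 3 the other.
hsa-miR-141-3p: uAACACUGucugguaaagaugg
hsa-miR-200a-3p: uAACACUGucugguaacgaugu
hsa-miR-200b-3p: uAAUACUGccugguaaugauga
hsa-miR-200c-3p: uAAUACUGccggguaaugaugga
hsa-miR-429: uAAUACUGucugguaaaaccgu
The matching 7-base sites were counted in the longest annotated 3′ UTR of each gene, over its coding transcripts (GENCODE 29). ZEB1 held 6 of CAGTATT and 3 of CAGTGTT, and ZEB2 held 5 and 4. FN1 held 2 and 0 and SNAI2 held 1 and 0, while SNAI1, TWIST1, TWIST2 and VIM held neither. Of 12780 genes tested in a line, with a median UTR of 1370 bases, 19.3% held CAGTATT and 21.7% CAGTGTT at least once. The UTRs of ZEB1 and ZEB2 were longer, at 2549 and 5370 bases, and those of the other members had 322 to 1203 bases. The counts were not corrected for length. The first site of each kind in either transcript is printed with its flanks and with the site in capitals.
ZEB1 CAGTATT site at UTR base 369: gttttatcttatCAGTATTatca
ZEB1 CAGTGTT site at UTR base 782: aatcatcagaatCAGTGTTtgtg
ZEB2 CAGTATT site at UTR base 392: actaccatacatCAGTATTttta
ZEB2 CAGTGTT site at UTR base 208: aaaaattttgtaCAGTGTTaagg
The gene rows of the 5 microRNAs were 0 in all 12 libraries. An mRNA library does not sample mature microRNAs, so their level was not measured.

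VIM was by far the most abundant member in both lines and, in BoM-1833, fell by a small and even amount. Its normalized counts in BoM-1833 were 76715, 69409 and 74133 in siNT and 62776, 64632 and 63024 in siPHF19 libraries. The groups were apart. The mean went from 73419 ± 3705 to 63477 ± 1007 (SD, n = 3). VIM fell by 0.21 on the log2 scale (standard error 0.05, adjusted p 0.00213) by the authors' deposited table, leaving 86.5%, and the call was lost without siPHF19 replicate 3 (adjusted p 0.0518).

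In MDA-MB-436 the normalized counts of VIM were 19093, 19979 and 20231 in siNT and 18548, 18780 and 18097 in siPHF19 libraries. Here too every treated library was below every control, though by little. VIM was not called, its log2 fold change being -0.10 (standard error 0.06, adjusted p 0.220) by the authors' deposited table, and passed the threshold without siNT replicate 1 (-0.12, adjusted p 0.0366, DESeq2). The lines were not shown to differ in this response (difference -0.11, standard error 0.08, adjusted p 0.518, z test). Control VIM was 4.22-fold higher in BoM-1833, at 4461 ± 235 against 1056 ± 34.8 RPM (SD, n = 3).

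VIM-AS1, an antisense transcript that overlaps VIM on the opposite strand (chromosome 10, 17214239 to 17229985), was read at under 1 percent of VIM. In BoM-1833 it had normalized counts of 214, 186 and 212 in siNT and 123, 106 and 150.2 in siPHF19 libraries, which did not overlap. VIM-AS1 fell by 0.69 on the log2 scale (standard error 0.18, adjusted p 0.00170) by the authors' deposited table, a call that was lost without siPHF19 replicate 2 (adjusted p 0.0609). In MDA-MB-436 its counts were 94.96, 69.8 and 61.1 in siNT and 56.7, 34.8 and 50.7 in siPHF19 libraries, again apart, with a log2 fold change of -0.68 (standard error 0.29, adjusted p 0.0748, authors' deposited table), not called. VIM-AS1 reads were 0.278% of VIM reads in control and 0.200% in treated BoM-1833 cells (exact 2-sided permutation p = 0.1, the smallest possible), and 0.383% and 0.257% in MDA-MB-436 (p = 0.2). The kit keeps strand, but the use of strand in counting is not stated, so reads of VIM and VIM-AS1 may be mixed. ZEB1-AS1, which overlaps the start of ZEB1 on the other strand, was not called in either line (log2 fold changes of 0.07 and 0.01, adjusted p 0.884 and 0.991, authors' deposited table). ZEB2-AS1 had no read in 11 of 12 libraries.

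FN1 had estimates of opposite sign in the lines, and neither passed the test. In MDA-MB-436 its normalized counts were 1360, 1872 and 2473 in siNT and 2866, 3003 and 2490 in siPHF19 libraries. The treated values were all above the controls, but siNT replicate 3 nearly met the lowest of them. Means were 1902 ± 557 and 2786 ± 265 (SD, n = 3). FN1 was not called, at a log2 fold change of 0.55 (standard error 0.26, adjusted p 0.109) by the authors' deposited table. Without siNT replicate 3 it was called (0.78, adjusted p 6.90e-04, DESeq2). edgeR called it on all libraries (0.55, adjusted p 0.0361), as did limma at a pseudocount of 1 (0.59, adjusted p 0.0339).

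In BoM-1833 the normalized counts of FN1 were 5595, 7082 and 9046 in siNT and 6863, 5369 and 5510.2 in siPHF19 libraries. The ranges overlapped. The log2 fold change in the authors' deposited table is -0.29 (standard error 0.23, adjusted p 0.532). Control libraries of FN1 varied more than those of VIM, with a coefficient of variation of 29.3% against 3.02% in MDA-MB-436 and 23.9% against 5.05% in BoM-1833. In both lines siNT replicate 1 held the least FN1 and siNT replicate 3 the most. The difference of the responses was -0.84 (standard error 0.34, adjusted p 0.160, z test). It passed the threshold without MDA-MB-436 siNT replicate 3 (-1.08, adjusted p 0.00902) or without BoM-1833 siNT replicate 1 (-0.998, adjusted p 0.0305). Control FN1 was 4.33-fold higher in BoM-1833, at 440 ± 104 against 102 ± 29.8 RPM (SD, n = 3).

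**Figure D4:**
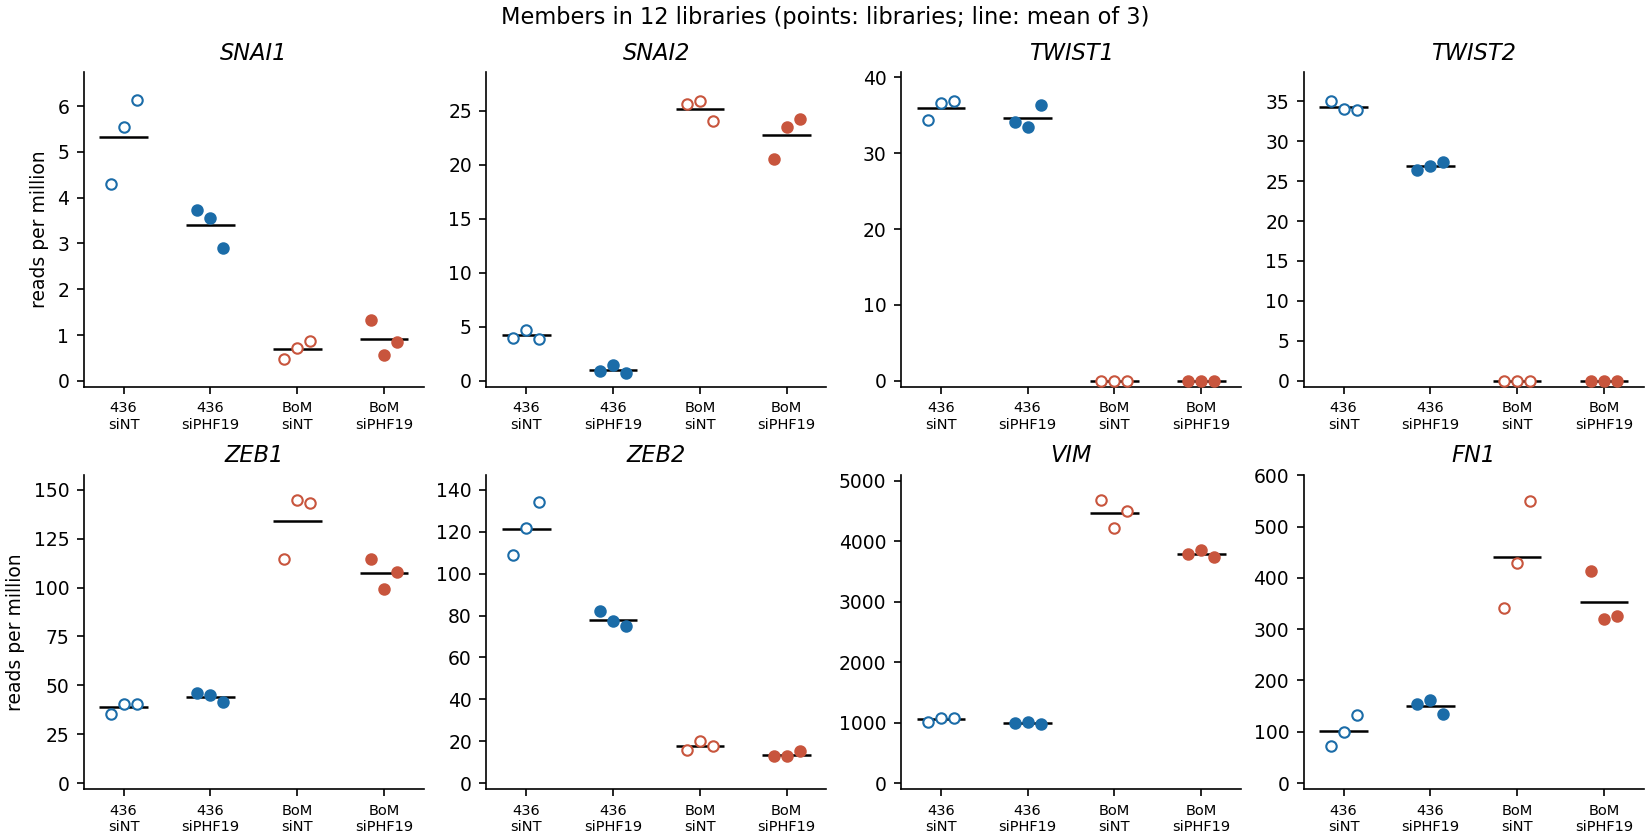
RPM of each gene in the 12 libraries, on linear axes, open for siNT and filled for siPHF19, with lines at the mean of 3. SNAI2 in MDA-MB-436 drops from 4.22 to 1.03, and FN1 control libraries spread over 72.4 to 132 (MDA-MB-436) and 341 to 549 (BoM-1833).

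The upstream sequences of VIM and FN1 are given because both genes were higher in BoM-1833 controls, and they differ in the textbook elements they hold. They lie on chr10:17227991-17228240 (plus strand) and chr2:215436173-215436318 (minus strand), as RefSeq gives them for GRCh38.p14. Capitals mark matches to the cAMP response element (TGACGTCA), the CCAAT box and the GC box.
VIM upstream: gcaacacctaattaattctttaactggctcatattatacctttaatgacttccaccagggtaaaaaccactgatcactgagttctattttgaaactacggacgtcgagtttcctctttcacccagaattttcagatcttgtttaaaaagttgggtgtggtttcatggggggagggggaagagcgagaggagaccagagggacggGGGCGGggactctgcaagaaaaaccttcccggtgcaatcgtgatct
FN1 upstream: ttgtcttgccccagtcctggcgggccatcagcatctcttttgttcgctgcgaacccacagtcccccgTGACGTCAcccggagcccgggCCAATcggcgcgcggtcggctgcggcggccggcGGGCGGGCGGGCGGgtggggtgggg
The FN1 window of 300 bases holds 1 cAMP response element, which 1.85% of all windows hold, with 1 CCAAT box and 6 GC boxes. The VIM window holds 1 GC box and neither of the other elements. Neither has a CAGGTG E-box, nor has the window of ZEB2. ZEB1 has 7 windows, of which 2 hold that E-box, with 1 and 3 matches.

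A 6-base word, AAACTG, is counted in the 3′ UTRs because earlier results of these data had singled it out among genes that fell, so its shares are a description. It occurred in 66.8% of genes called lower in BoM-1833 (median UTR 1788 bases), 39.0% of those called higher (1497 bases) and 46.6% of those not called (1358 bases). In MDA-MB-436 the shares were 55.0% (1228.5 bases), 48.7% (1998 bases) and 45.5% (1329 bases). Of the members, ZEB2 held it 4 times, ZEB1 and FN1 2 times each, SNAI2, TWIST1, TWIST2 and VIM 1 time each and SNAI1 not at all. In PHF19 itself it occurred 1 time. The UTRs of the members had from 322 (VIM) to 5370 bases (ZEB2), and the counts were not corrected for length. The first occurrence in 4 called members is printed in capitals.
TWIST2 at UTR base 450: acaattctgttgAAACTGgacc
ZEB1 at UTR base 1015: actctgtcagagAAACTGaaac
ZEB2 at UTR base 182: gggtattgttaaAAACTGcatt
VIM at UTR base 252: tgaataccattaAAACTGcttt
The sequences of the siRNAs were not used here, and the part of this word in the decreases was not tested.

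Across all genes, the responses of 4.89% of the 12290 genes tested in both lines differed between the lines. Among the members 2 of the 5 tested did, SNAI2 and ZEB1, as given above. Both fell in one line only by the test, SNAI2 in MDA-MB-436 and ZEB1 in BoM-1833. Of the members tested in both lines, ZEB2 in MDA-MB-436 and ZEB1 and VIM in BoM-1833 were called in the line with the higher control level, while SNAI2 was called in the line with the lower one. SNAI1 and TWIST2 could be called in MDA-MB-436 only.

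The genes whose pattern was most like that of each called member were found by Pearson's r of log2 RPM over the 12 libraries, after the mean of each line was subtracted, among 8810 genes with at least 10 RPM in both lines. The libraries share the treatment, so r is a description. TERF2 was among the genes most like SNAI2 (r = 0.97), and TWIST2 was most like IL11 (0.99). ZEB2 was most like EIF5A2 (0.98) and ACBD5 (0.96), and SNAI1 most like ARHGAP26 (0.95) and SH3PXD2B (0.94). ZEB1 was most like PDZD8 (0.97) and RAPH1 (0.96), and VIM most like PAX8-AS1 (0.93) and POPDC3 (0.93). In the authors' deposited tables EIF5A2 fell in both lines, by a log2 fold change of 1.11 in MDA-MB-436 (adjusted p 7.07e-15) and by 0.58 in BoM-1833 (adjusted p 0.00129).

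Among other transcription factors of EMT, those called were lower, and in each line fewer were called than not called. Of 14 listed, 11 were tested in MDA-MB-436, where 5 fell and 0 rose by DESeq2 (0 higher by edgeR and at an unadjusted p under 0.05), with a median log2 fold change of -0.57. In BoM-1833 10 were tested, 3 fell and 0 rose by DESeq2 (0 higher by edgeR, 1 at an unadjusted p under 0.05), with a median of -0.25. The shares of all tested genes called lower were 11.5% (MDA-MB-436) and 5.72% (BoM-1833). SOX9, a factor of progenitor cells, fell by 0.72 in MDA-MB-436 (adjusted p 3.20e-13) and by 0.26 in BoM-1833 (adjusted p 0.00281), per the authors' deposited tables. The chromatin protein HMGA2 fell by 0.78 (adjusted p 1.00e-09) and 0.25 (adjusted p 0.0257), and ETS1, the founder of its factor family, by 0.36 (adjusted p 4.26e-08) and 0.33 (adjusted p 2.80e-07), per the authors' deposited tables. FOXQ1 and PRRX1, named after their values were seen, fell in MDA-MB-436 by 1.74 (adjusted p 1.61e-09) and 0.89 (adjusted p 0.00516) and were not called in BoM-1833 (0.10 and -0.58, adjusted p 0.540 and 0.368), per the authors' deposited tables. The lines differed in the response of FOXQ1 (adjusted p 9.01e-09, z test) and were not shown to differ in that of PRRX1 (adjusted p 0.803). In BoM-1833 1 call of the 3 remained without siPHF19 replicate 1 or 2, since SOX9 (adjusted p up to 0.0685) and HMGA2 (up to 0.267) were lost, and HMGA2 was lost also without siNT replicate 2.

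Of 7 dimer partners and inhibitors of TWIST, 6 were tested in each line, with medians of 0.13 and -0.03. The background of calls in either direction was 22.1% (MDA-MB-436) and 10.9% (BoM-1833) of all tested genes. ID2, which keeps helix-loop-helix factors from DNA, rose by 0.86 on the log2 scale in MDA-MB-436 (standard error 0.20, adjusted p 2.15e-04, authors' deposited table) and was the only call. Without siNT replicate 3 a second gene was called there, 2 in all. In BoM-1833 0 were called by DESeq2 and 0 by edgeR, and 0 had an unadjusted p under 0.05, while ID2 was near absent there at mean normalized counts of 2.45 and 1.99.

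Corepressors and regulators of SNAI and ZEB stability were split. All 22 were tested in each line, and 6 rose and 5 fell in MDA-MB-436 while 3 rose and 2 fell in BoM-1833, with medians of 0.02 and -0.05. Calls in either direction made up 22.1% (MDA-MB-436) and 10.9% (BoM-1833) of all tested genes. AJUBA, a LIM protein that binds SNAI proteins, rose by 0.69 (adjusted p 6.91e-15) and 0.37 (adjusted p 8.66e-08) in the authors' deposited tables. SMARCA4, the BRG1 ATPase that ZEB1 recruits, fell by 0.47 (adjusted p 4.37e-12) and 0.52 (adjusted p 5.92e-17) there. LOXL2 and SIAH2 also rose and LATS2 fell in both lines, named after their values were seen. The 11 calls of MDA-MB-436 went to 5 without siNT replicate 2 or siPHF19 replicate 1 and to 6 without siPHF19 replicate 2 or 3, and the 5 of BoM-1833 to 8 without siNT replicate 1.

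Listed epithelial genes, of the kind repressed in EMT, were higher where they were called. Whether the members had a part in these rises was not tested. Of 31 listed, 20 were tested in each line, of which 6 (MDA-MB-436) and 7 (BoM-1833) rose, and 0 fell by DESeq2, by edgeR or at an unadjusted p under 0.05 in either line. The shares of all tested genes called higher were 10.5% (MDA-MB-436) and 5.21% (BoM-1833). The medians of the list were 0.24 and 0.36. KRT8 had normalized counts of 1093, 1109 and 999 in siNT and 1713, 1626 and 1824 in siPHF19 libraries of MDA-MB-436, and of 9079, 8550 and 8751 against 14071, 14729 and 14133 in BoM-1833. These groups were far apart in both lines. KRT8, which pairs with KRT18 in the filaments of simple epithelia, rose by 0.69 (standard error 0.08, adjusted p 3.17e-14) and 0.70 (standard error 0.05, adjusted p 2.94e-36), per the authors' deposited tables. JUP, a plakoglobin of junctions, rose by 0.77 (adjusted p 1.88e-08) and 0.49 (adjusted p 5.61e-09), and KRT18 by 0.26 (adjusted p 7.31e-04) and 0.46 (adjusted p 6.16e-12), per the authors' deposited tables. AP1M2, named after its values were seen, also rose in both, so that 4 of the 17 list genes tested in both lines did. Over all genes tested in both lines, 2.55% were called higher in both. CDH1 was too low for an adjusted p in either line.

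Other mesenchymal genes went both ways. Of 33 listed, 28 were tested in MDA-MB-436, with 13 higher and 8 lower and a median of 0.27. In BoM-1833 26 were tested, with 8 higher and 4 lower and a median of 0.11. Of all tested genes, 10.5% were called higher and 11.5% lower in MDA-MB-436, and 5.21% higher and 5.72% lower in BoM-1833. SPARC, a matrix glycoprotein, rose by 1.54 in MDA-MB-436 (standard error 0.11, adjusted p 6.72e-41) and was not called in BoM-1833 (-0.10, standard error 0.58, adjusted p 0.958), per the authors' deposited tables. SPARC was low in BoM-1833, at mean normalized counts of 20.8 (siNT) and 19.3 (siPHF19). The lines were not shown to differ in its response (adjusted p 0.0877, z test). TNC, a matrix protein of migrating cells, fell in both, by 1.32 (adjusted p 1.42e-33) and 0.49 (adjusted p 1.30e-06). COL5A1, a fibrillar collagen, rose by 0.35 (adjusted p 5.72e-08) and 0.66 (adjusted p 2.18e-15), and MYL9, a myosin light chain, by 0.95 (adjusted p 9.43e-15) and 0.52 (adjusted p 4.74e-09), each in the authors' deposited tables. Of 9 genes called in both lines, 7 were higher in both and 2 lower in both.

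Around fibronectin, SDC2, a syndecan that binds matrix, rose by 0.73 (adjusted p 9.24e-17) and 0.70 (adjusted p 3.60e-18) in the authors' deposited tables. TGM2, a transglutaminase that cross-links matrix, fell by 0.87 (adjusted p 1.20e-09) and 0.26 (adjusted p 3.69e-04), per the authors' deposited tables. ITGB3 rose in BoM-1833 by 0.71 (adjusted p 2.33e-05) and was not called in MDA-MB-436 (0.59, adjusted p 0.167), per the same tables. The lines were not shown to differ in the response of ITGB3 (adjusted p 0.907, z test). In all, 1 of 13 tested receptors and assembly genes rose and 2 fell in MDA-MB-436, with 5 called without siNT replicate 1. In BoM-1833 2 of 11 rose and 1 fell. The calls in either direction over all tested genes were 22.1% and 10.9%, and the count in MDA-MB-436 is close to that background. The medians were 0.06 and 0.00.

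Of other filament genes, 2 of 8 tested fell and 0 rose in MDA-MB-436, and 1 of 7 fell and 0 rose in BoM-1833 by DESeq2. edgeR gave 0 higher in both, and at an unadjusted p under 0.05 there were 0 and 1 higher. Of all tested genes, 22.1% (MDA-MB-436) and 10.9% (BoM-1833) were called in either direction, and the counts of this list are close to those shares. The medians were -0.10 and -0.00. NES, the filament protein nestin, which assembles with vimentin, fell by 1.25 (adjusted p 0.0220) and 0.29 (adjusted p 0.0278), and LMNB2, a nuclear lamin, by 0.23 in MDA-MB-436 (adjusted p 0.00340), per the authors' deposited tables. NES was low in MDA-MB-436, at mean normalized counts of 29.2 (siNT) and 12.3 (siPHF19), and the standard error of its change there was 0.43. The NES call was kept in 1 of 6 fits without 1 library in each line, that without siNT replicate 3 in MDA-MB-436 (elsewhere adjusted p up to 0.193) and that without siNT replicate 2 in BoM-1833 (up to 0.159). LMNB2 was lost without siNT replicate 2 or siPHF19 replicate 2 or 3 (up to 0.132). The list then held 0 calls in MDA-MB-436 without siNT replicate 2 or siPHF19 replicate 2 or 3, and 1 without siPHF19 replicate 1. In BoM-1833 it held 0 without siNT replicate 3 or without siPHF19 replicate 1, 2 or 3.

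TGF-beta is the main inducer of these factors. Its gene TGFB2 rose by 0.68 (adjusted p 8.99e-15) and 0.59 (adjusted p 1.69e-12), and TGFB1 by 0.37 in BoM-1833 (adjusted p 2.24e-07), per the authors' deposited tables. SMAD3, a transducer of the signal, rose by 0.23 in MDA-MB-436 (adjusted p 0.0228, authors' deposited table), a call lost without siNT replicate 2 or without siPHF19 replicate 1, 2 or 3 (adjusted p up to 0.183), each of which left 1 call. Of 10 genes tested in each line, 2 rose and 0 fell in MDA-MB-436 (0 lower by edgeR and at an unadjusted p under 0.05), and 2 rose and 1, SMAD4, fell in BoM-1833. The medians were 0.09 and 0.13, against -0.00 over all tested genes. Calls in either direction made up 22.1% (MDA-MB-436) and 10.9% (BoM-1833) of all tested genes. The count of this list in MDA-MB-436 is close to that share.

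**Figure D5:**
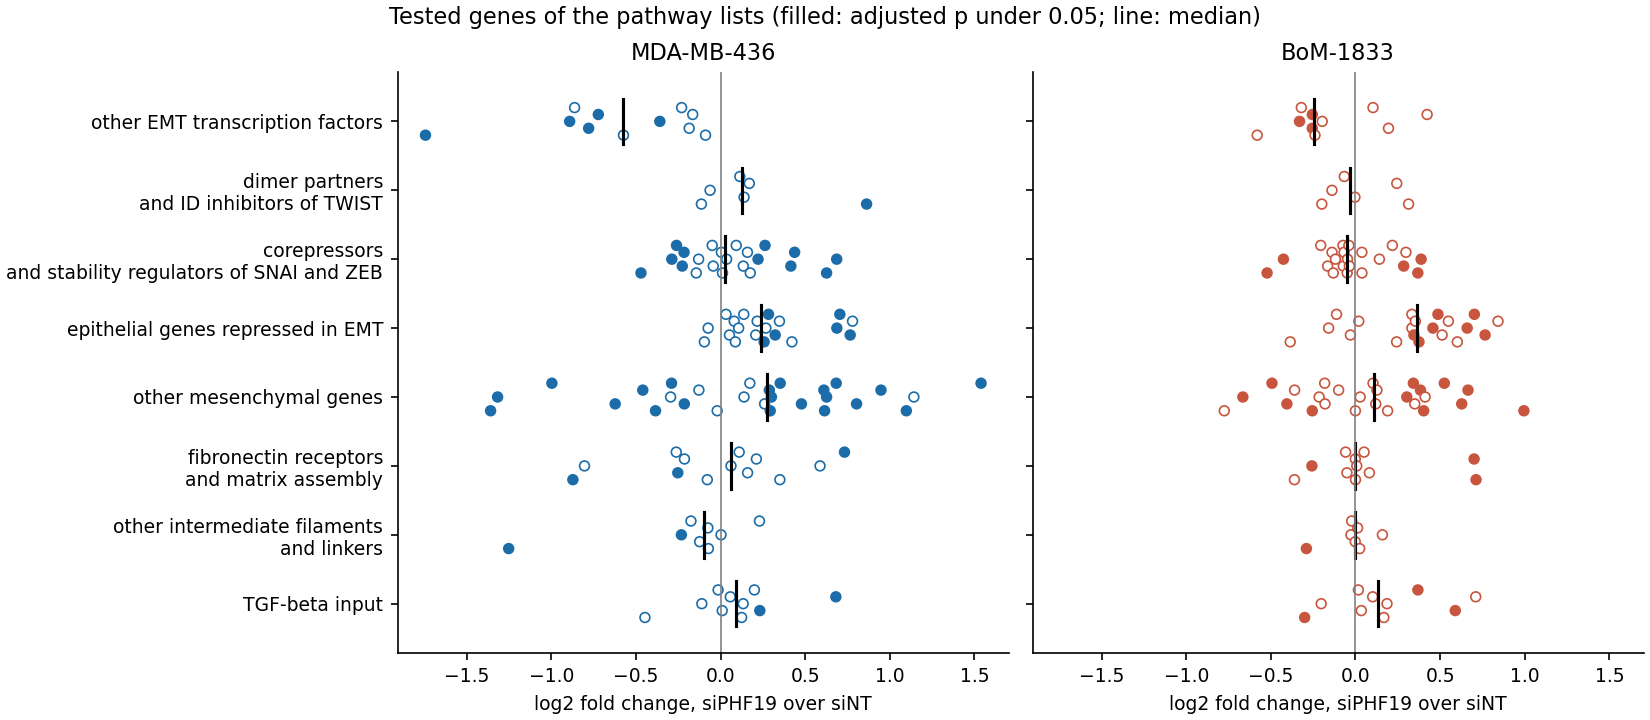
Log2 fold change (siPHF19 over siNT, authors' deposited tables) of each tested gene in 8 lists around the members, in both lines, filled where the adjusted p is under 0.05, with a line at the median. The other EMT factors have medians of -0.57 and -0.25, and the epithelial genes 0.24 and 0.36.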

How the data were processed

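For each line the authors deposited a table of DESeq2 results. Its values per library are a signal, read counts divided by a size factor per library, and the deposited fold changes and standard errors are on the log2 scale, with a Wald statistic (a score), p-values and adjusted p-values, per the file headers. The submitters' processing notes name STAR, RSEM 1.3.1, DESeq2 1.46.0 and hg38, without their roles. The number of per-sample columns of no sample was 0, and 28 gene names turned into dates are not named.

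All values per library were whole multiples of a step (100% within 0.01), so reads were recovered. DESeq2 1.42.0 on them gave the deposited calls. Levels between lines used edgeR 4.0.16 (TMM, filterByExpr, quasi-likelihood). Limma 3.58.1, R 4.3.3 and Python 3.11.15 served the alternatives and tables. Genes without an adjusted p were not tested. The difference between lines was z, from deposited log2 fold changes and standard errors, with Benjamini-Hochberg adjustment. The fits were tested on simulated data.

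Groups and replicate numbers came from the titles. Same-numbered siNT and siPHF19 libraries did not deviate together, so no pairing was used. The members and lists were chosen with earlier results of these data known. Named genes are the members, PHF19, the 2 called genes of each list with the greatest Wald statistic in each line, antisense rows, and the 2 genes most like each called member (pseudocount of 0.5 RPM). Results of some named genes are not reported here. Tools, filters, pseudocounts, thresholds and left-out libraries were varied. No p-value was adjusted over a list alone.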

Additional observations from a re-analysis of the deposited data

Results flagged for a closer look

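The response to siPHF19 differed between the lines, by a z test of the difference adjusted over 12290 genes, for 2 members and for listed genes, of which those reported are given here as BoM-1833 minus MDA-MB-436 on the log2 scale. For the members the difference was 1.89 (SNAI2) and -0.48 (ZEB1). Among other EMT factors it was 1.85 for FOXQ1, 0.52 for HMGA2 and 0.47 for SOX9. Among cofactors it was -0.32 for AJUBA and -0.38 for RCOR1, and for the epithelial gene LSR it was 0.55. Among mesenchymal genes it was 0.82 for TNC, 0.31 for COL5A1, 0.32 for COL6A1, 0.29 for CD44, -0.38 for FSTL1 and -0.42 for MYL9. For TGM2, ITGB1 and TGFB1 it was 0.61, 0.30 and 0.48. FOXQ1, RCOR1, LSR, COL6A1, CD44, FSTL1 and ITGB1 are named after their values were seen.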

How the results depend on the processing

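The number of members called was 4 in MDA-MB-436, 2 in BoM-1833, 2 for the difference between lines and 8 between control levels. In fits without 1 library it ranged from 2 to 5, from 0 to 3, from 1 to 3 and from 8 to 8. In BoM-1833 it was 1 with limma at a pseudocount of 1 or 0.5 and 1 at an adjusted p under 0.01, and 0 when a log2 fold change of at least 0.5 was asked for. For the difference it was 1 among genes with a mean of at least 100, where SNAI2 was left out by that minimum. No tested response, difference or control level of a member reversed its direction in any setting, which leaves out SNAI1, TWIST1 and TWIST2 in BoM-1833 and their differences. Of 18 settings a line, the call was lost in 8 for SNAI1 and 3 for TWIST2 in MDA-MB-436 and in 10 for ZEB1 and 4 for VIM in BoM-1833. A call was gained in 7 for FN1 and 1 for VIM in MDA-MB-436 and in 2 for ZEB2 in BoM-1833. Of 16 settings of the difference, ZEB1 was lost in 6 and FN1 gained in 2. The causes were not tested.

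With the replicate number as a block, DESeq2 called 2 members (MDA-MB-436) and 0 (BoM-1833), edgeR 4 and 0, and the edgeR interaction 1. By DESeq2, SNAI1 (adjusted p 0.194) and TWIST2 (0.0701) were lost in MDA-MB-436, and ZEB1 (0.134) and VIM (0.0760) in BoM-1833. By edgeR, SNAI1 (0.0507), ZEB1 (0.0999) and VIM (0.0995) were lost, TWIST2 was kept (0.0229) and FN1 was called in MDA-MB-436 (0.0405). Over all genes DESeq2 with the block called 1610 in place of 3143 and 610 in place of 1411. Same-numbered siNT and siPHF19 libraries correlated in their deviations at -0.32, 0.02 and -0.35 in MDA-MB-436 and at -0.46, -0.18 and -0.24 in BoM-1833. None correlated best with its own number. Whether a number marks a batch is not stated, and 3 libraries a group are too few to settle it. Between the controls of the lines the correlations were 0.60, -0.03 and 0.56. There 2 of 3 correlated best with their own number, a hint from the data and not the design. With that block all 8 control differences were called. Depth limits SNAI1 in BoM-1833 (8 to 22 reads) and SNAI2 in MDA-MB-436 after siPHF19 (13 to 32 reads).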
